A study of Mus musculus with 11 samples.

Results

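The complement components and regulators described here are 9 genes, C1qa, C1qb, C1qc, C1ra, C1s1, C4b, C3, Cfb and Serping1, taken as the rows of the heart count table whose GENCODE symbol on mouse build GRCm38 carries one of these names. All 9 were found among the 55487 gene identifiers, and all 9 were among the 23779 genes that passed the filter on low counts. RNA was sequenced from hearts of female C57BL/6NTac mice, an inbred strain. The obese + senolytic group (3 libraries) ate an obesogenic diet, 60.3% kcal fat plus sweetened condensed milk, and was gavaged on 3 consecutive days of each week with dasatinib (5 mg/kg, a tyrosine kinase inhibitor) and quercetin (50 mg/kg, a plant flavonoid) in 10% PEG400. This pair of drugs is used as a senolytic, a treatment meant to remove senescent cells. The obese group (4 libraries) ate the same diet and was gavaged with 10% PEG400 alone. The control diet group (4 libraries) ate a diet with 10.4% kcal fat. Mice were 8 weeks old when the diets began, diets lasted 24 weeks, and the cocktail began after 16 weeks. No label says whether the control mice were gavaged, so diet and gavage cannot be told apart in comparisons with the control diet.

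Complement is a set of proteins that mark cells, debris and microbes for removal and that call in inflammatory cells. In the classical pathway C1q binds its target and carries the proteases C1r and C1s, C1s cuts C4 and C2, and the C4b-C2 pair cuts the central protein C3. The alternative pathway reaches C3 through factor B, and the C1 inhibitor, a serpin encoded by Serping1, blocks C1r and C1s. The liver makes most circulating complement, whereas C1q comes mainly from macrophages, and fibroblasts make C1r, C1s, C3 and the C1 inhibitor.

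Library totals were 64.2 to 72.28 M counts in obese + senolytic libraries, 52.74 to 67.25 M in obese libraries and 73.1 to 103.3 M in control-diet libraries, so that the rarest member, Cfb, still had 2755 counts in all. Values are CPM, counts scaled to library sizes adjusted by TMM, edgeR's trimmed mean of M-values, and tests are edgeR's quasi-likelihood test with Benjamini-Hochberg adjustment over all 23779 genes at a threshold of 0.05. The 8 heart muscle markers, the check of the labelled tissue, summed to 28390 to 33470 CPM in obese + senolytic libraries, 22430 to 33550 CPM in obese libraries and 27810 to 39150 CPM on the control diet. Libraries differed in markers of parts of the heart. Atrial myocyte markers, 8 genes led by Nppa and Bmp10, summed to 2896 and 5892 CPM in obese + senolytic replicates 2 and 3 and to 2240 CPM in obese replicate 3. In the other 8 libraries they summed to between 24.8 and 221.7 CPM. The same 3 libraries had the highest sums of the 12 fibroblast markers (2498, 2225 and 2602 CPM) and of the 10 mesothelial and epicardial markers (117.6, 71.6 and 37.9 CPM). Adipocyte markers, 8 genes, split the libraries in another way. Their mean log2 CPM was -1.68, 1.31 and 1.13 in obese + senolytic replicates 1 to 3, -2.67, 1.005, 1.16 and -1.44 in obese replicates 1 to 4, and -3.00 to -2.65 in the 4 control-diet libraries. Between 0 and 1 of the 8 were at 0 in a library on the obesogenic diet, and 2 to 3 on the control diet. Adipoq, Lep, Plin1 and Cidec passed as higher, and Lipe as lower, in both obese + senolytic and obese against control-diet hearts. Lipe, at 110.1 CPM on the control diet, made up most of the summed CPM of this list, so the mean of logs is given. The list also holds the complement gene Cfd. Genes of the mitochondrial chromosome took 17.8% to 22.4% of counts in obese + senolytic libraries, 21.4% to 24.5% in obese libraries and 28.2% to 32.3% on the control diet. Sense-intronic and unconfirmed (TEC) genes, called the intronic share here, took 0.509% to 0.671%, 0.663% to 0.811% and 0.286% to 0.590% in the same order. Results below are also given without these 3 libraries, a fit in which obese + senolytic replicate 1 is alone in its group and is assumed to vary like the other groups. In RNA of a bulk tissue, more cells of a type and more RNA per cell cannot be told apart.

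The obesogenic diet with vehicle gavage gave no call among the members. In obese against control-diet hearts 0 of 9 members passed the threshold, beside 30.1% of all genes tested, 14.4% higher and 15.7% lower. Of the 9 log2 fold changes 4 were positive, and their median was -0.04, beside 0.11 for all genes. In obese + senolytic against obese hearts 0 of 9 passed, beside 0% of all genes tested. All 9 log2 fold changes were positive there, with a median of 0.33, beside -0.01 for all genes. Over all genes, 10.2% had an unadjusted p under 0.05 in that comparison, and no member did, the lowest being 0.0549 for C1ra. DESeq2 called 124 genes in it and limma voom 1, none of them a member. In obese + senolytic against control-diet hearts C3 passed as higher, 1 of 9 members, beside 15.8% of all genes tested, 7.43% higher and 8.39% lower. A single call among 9 genes is close to that share. All 9 log2 fold changes were positive there too, with a median of 0.22, beside 0.05 for all genes. The comparisons share libraries, so these counts are not independent of each other. Without the 3 libraries with high atrial markers, obese + senolytic replicate 1 is alone in its group, so calls of members are not counted there. Log2 fold changes were then negative for 4 of 9 members in obese + senolytic against obese hearts (C1qc, C1s1, C4b and Cfb, -0.72 to -0.04) and for 6 of 9 in obese + senolytic against control-diet hearts (the C1q chains, C1ra, C1s1 and Serping1, -0.71 to -0.08).

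**Figure D1:**
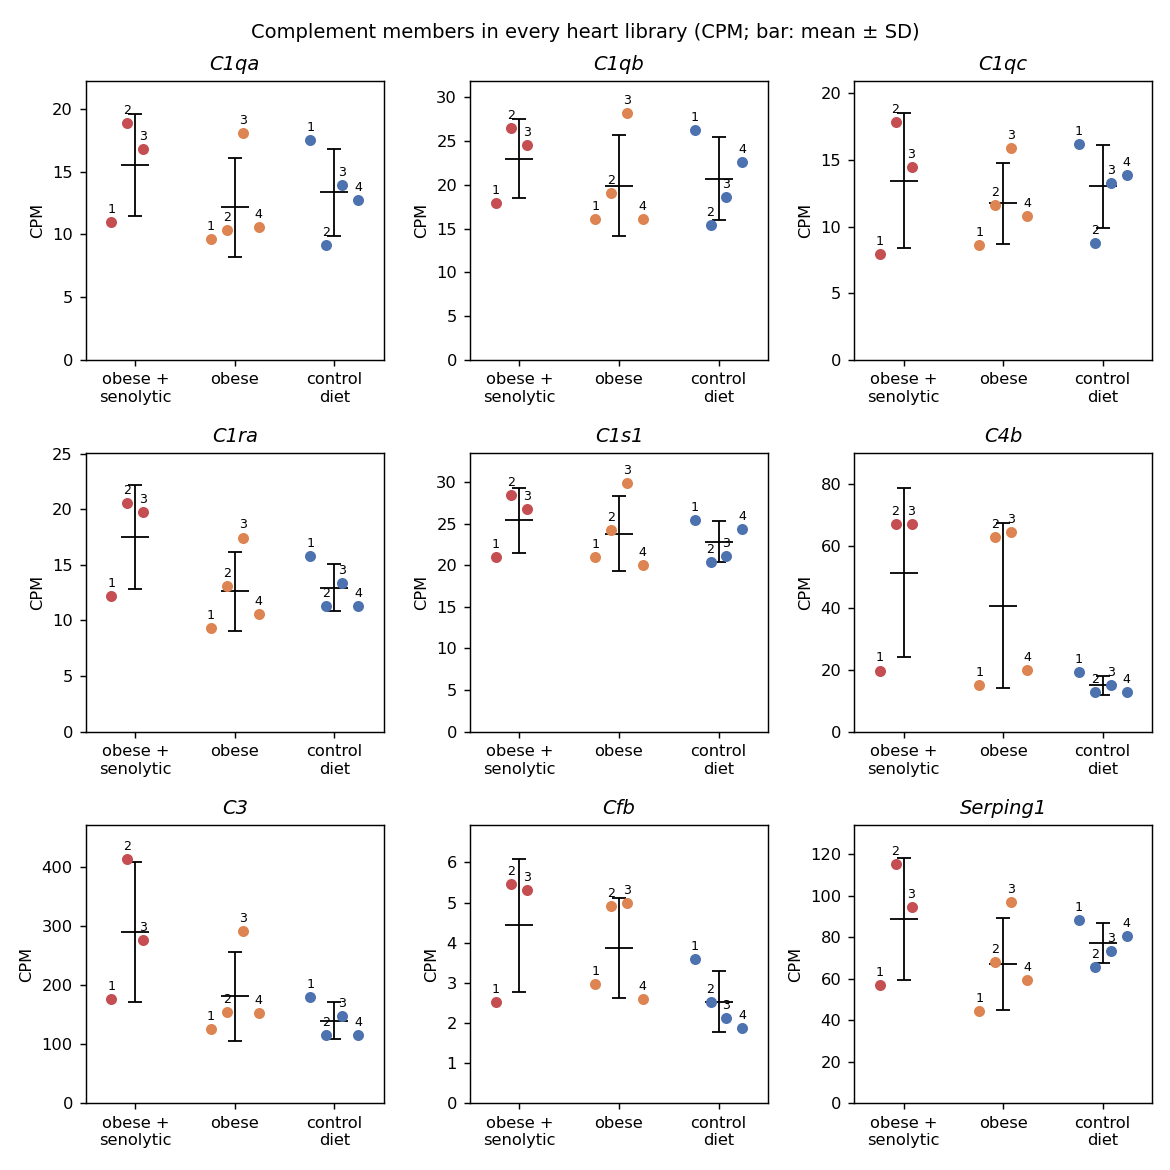
CPM of the 9 members (vertical axes, linear, each from 0) in obese + senolytic, obese and control-diet libraries, each point 1 library with its replicate number, with the group mean ± SD. C4b splits the libraries on the obesogenic diet into 4 between 63.0 and 67.1 CPM and 3 between 15.2 and 20.0 CPM.

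Per kilobase of exon, the members covered a wide range of levels. C3 had the highest mean in obese + senolytic hearts, 56.2 ± 23.0 CPM per kb (SD, n = 3), and in obese hearts, 35.2 ± 14.6 (SD, n = 4), and was second on the control diet at 27.2 ± 5.98 (SD, n = 4). Serping1 averaged 38.2 ± 12.7 CPM per kb in obese + senolytic hearts (n = 3), 28.9 ± 9.49 in obese hearts (n = 4) and 33.2 ± 4.18 on the control diet (n = 4), where it was first. C3 stood above Serping1 in 3 of 3 obese + senolytic and 4 of 4 obese libraries, and Serping1 stood above C3 in 4 of 4 control-diet libraries. The ranges of the pair nevertheless overlapped in each group. C1qb and C1qa followed, with C1qb at 21.1, 18.3 and 19.0 CPM per kb in obese + senolytic, obese and control-diet hearts. Cfb was the lowest in each group at 1.57 ± 0.586, 1.37 ± 0.443 and 0.895 ± 0.269 CPM per kb in the same order (SD, n = 3, 4 and 4). C4b changed place most. It was the fifth in obese + senolytic hearts at 9.002 ± 4.79 CPM per kb, the sixth in obese hearts at 7.15 ± 4.70 and the eighth on the control diet at 2.64 ± 0.536. On the control diet its range did not overlap with that of C1ra above it or Cfb below it, whereas in both obese groups it overlapped with both of its neighbours in the order.

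The recognition subunits of C1 come first. C1qa, C1qb and C1qc encode the A, B and C chains of C1q and lie side by side on the minus strand of chromosome 4 (GRCm38), at chr4:136895917-136898803, chr4:136880129-136886187 and chr4:136889804-136893065. C1qa had 11.02, 18.9 and 16.8 CPM in obese + senolytic replicates 1 to 3, 9.67, 10.3, 18.1 and 10.6 CPM in obese replicates 1 to 4, and 17.5, 9.18, 13.9 and 12.7 CPM in control-diet replicates 1 to 4. The groups overlapped, and the high libraries came from all of them. C1qb had 17.95, 26.5 and 24.5 CPM in obese + senolytic libraries, 16.1, 19.1, 28.3 and 16.1 CPM in obese libraries and 26.2, 15.4, 18.6 and 22.6 CPM on the control diet. C1qc had 7.91, 17.9 and 14.5 CPM in obese + senolytic libraries, 8.63, 11.6, 15.9 and 10.8 CPM in obese libraries and 16.2, 8.73, 13.3 and 13.9 CPM on the control diet. All 3 chains thus showed the same libraries as high, obese + senolytic 2 and 3, obese 3 and control 1. Obese against control-diet log2 fold changes were -0.13 for C1qa, -0.06 for C1qb and -0.15 for C1qc (adjusted p 0.705, 0.855 and 0.689), and 0.32, 0.41 and 0.31 under library totals alone, a scaling that raised the median of all genes by 0.422. Obese + senolytic against obese they were 0.36, 0.21 and 0.19 (adjusted p 0.645, 0.76 and 0.833). For C1qa the 95% interval of that last difference ran from -0.21 to 0.92 on the log2 scale, which spans folds of 0.866 to 1.89.

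The ratio of C1qa to C1qb, per kb, was 0.642 to 0.745 in obese + senolytic libraries, 0.567 to 0.691 in obese libraries and 0.590 to 0.784 on the control diet. The ratio of C1qc to C1qb was 0.248 to 0.380, 0.302 to 0.378 and 0.320 to 0.402 in the same order. By the root mean square difference of centred log2 CPM over the 11 libraries, the 5 genes most like C1qa among 12652 were C1qb (0.136), C5ar1 (0.151), the receptor of the inflammatory fragment C5a, Itm2c (0.156), C1qc (0.167) and Rcn1 (0.168). The SD of C1qa itself was 0.392. C1ra ranked sixth and Serping1 ninth in that order. The 18 macrophage markers, none of them at 0 in any library, summed to 212.4 to 333.3 CPM in obese + senolytic libraries, 192.8 to 385.1 CPM in obese libraries and 226.7 to 302.3 CPM on the control diet. The mean log2 CPM of the 3 chains exceeded that of the macrophage markers by 1.27 ± 0.0602 in obese + senolytic hearts (SD, n = 3), by 1.08 ± 0.07 in obese hearts (SD, n = 4) and by 1.05 ± 0.153 on the control diet (SD, n = 4). Obese + senolytic libraries (1.20 to 1.32) lay above obese libraries (0.996 to 1.16) and overlapped with the control diet (0.885 to 1.26). Of single genes tested, 10.1% did not overlap between obese + senolytic and obese libraries. The part of macrophage content in the C1q values was not tested. With the mesothelial marker score as a covariate, C1qc was lower in obese + senolytic than control-diet hearts, with a log2 fold change of -0.71 (adjusted p = 0.0354), against 0.05 (adjusted p = 0.926) without it. With the fibroblast score as a covariate, C1qc was lower in obese than control-diet hearts, at -0.41 (adjusted p = 0.0271), and with the adipocyte score at -0.74 (adjusted p = 0.0396). Without a covariate it was -0.15 (adjusted p = 0.689) in that comparison. These scores were added after the data were seen.

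**Figure D2:**
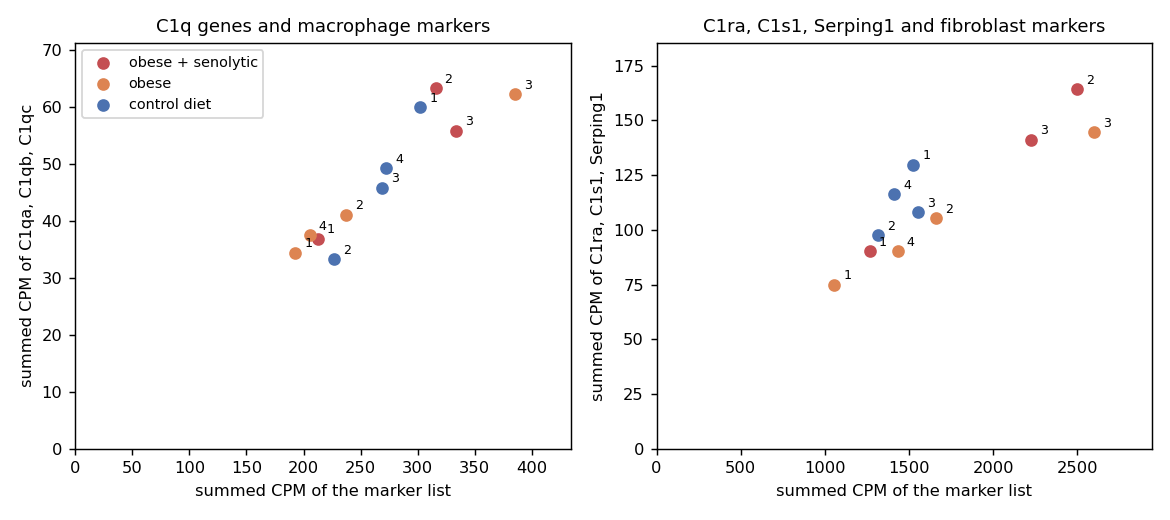
Summed CPM of C1qa, C1qb and C1qc against the 18 macrophage markers (left) and of C1ra, C1s1 and Serping1 against the 12 fibroblast markers (right), each point 1 library with its replicate number, colours for groups, linear axes from 0. Obese replicate 3 had the highest sum of either marker list, 385.1 and 2602 CPM, and obese + senolytic replicates 2 and 3 stand next to it on the right panel at 2498 and 2225 CPM.

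Promoter sequence from RefSeq (build GRCm38.p6) was at hand for C1qb and C1qc. The RefSeq start of C1qc lies inside its GENCODE gene, so its window may hold transcribed bases and is not shown. The C1qb sequence is the 250 bases before the RefSeq start, 5′ to 3′ on the minus strand, chr4:136886201-136886450. Any link between its letters and the shared movement of the 3 chains was not tested. Capitals mark matches, on either strand, to 2 motifs: GAGGAA, a core read by ETS factors such as the myeloid factor PU.1, and an NF-kB-type site, GGGA and CC with any 4 bases between them.
C1qb: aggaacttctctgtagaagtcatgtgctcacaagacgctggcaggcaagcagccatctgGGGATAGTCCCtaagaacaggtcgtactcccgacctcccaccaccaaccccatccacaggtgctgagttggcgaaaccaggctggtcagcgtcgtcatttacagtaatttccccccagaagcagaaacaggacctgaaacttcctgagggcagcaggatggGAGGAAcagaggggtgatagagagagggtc
GAGGAA stood 30 bases before the start, and the NF-kB-type letters matched on both strands at overlapping places, 191 and 190 bases before it. Among 32851 promoter windows of the same 250 bases, 23.3% held GAGGAA and 17.6% held the NF-kB-type letters, so neither match is rare. TGCTGAC, a MAF half-site (3.81% of windows), TTGCNNAA, a C/EBP-type site (9.56%), and TTCNNNGAA, a STAT-type site (7.02%), were searched too and had no match in this window.

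The proteases of C1 gave no call. C1ra (chr6:124512405-124523443, plus strand) encodes C1r, which activates C1s, and C1s1 (chr6:124530345-124542359, minus strand) encodes C1s. C1ra had 12.2, 20.6 and 19.7 CPM in obese + senolytic libraries, 9.33, 13.1, 17.4 and 10.6 CPM in obese libraries and 15.8, 11.3, 13.3 and 11.3 CPM on the control diet. C1s1 had 21.01, 28.4 and 26.7 CPM in obese + senolytic libraries, 20.9, 24.3, 29.9 and 20.0 CPM in obese libraries and 25.4, 20.4, 21.1 and 24.4 CPM on the control diet. The groups overlapped for both genes, and C1s1 had the narrowest spread of the members, its highest library being 1.35, 1.49 and 1.25 times its lowest in obese + senolytic, obese and control-diet hearts. The log2 fold change of C1s1 was 0.09 for obese + senolytic against obese (95% interval -0.24 to 0.42, adjusted p = 0.855) and 0.06 for obese against control diet (-0.25 to 0.37, adjusted p = 0.778). The log2 fold change of C1ra was 0.47 for obese + senolytic against obese (SE 0.224, adjusted p = 0.499) and 0.44 for obese + senolytic against control diet (adjusted p = 0.198). The ratio of C1ra to C1s1, per kb, was 0.608 to 0.775 in obese + senolytic libraries, 0.468 to 0.612 in obese libraries and 0.487 to 0.663 on the control diet. Near-identical copies could share reads with both: C1rb averaged 4.29, 3.29 and 3.17 CPM and C1s2 0.418, 0.485 and 0.306 CPM in obese + senolytic, obese and control-diet hearts. The antisense gene Gm16567, which overlaps C1s1, had at most 0.0146 CPM. The genes most like C1s1 across the 11 libraries were Cpq (0.0901), Wipf1 (0.0986), Zbtb4 (0.101), Tgfbr1 (0.101), a receptor of TGF-beta, and Tbc1d14 (0.104), beside an SD of 0.205 for C1s1.

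Serping1 (chr2:84765387-84775444, minus strand) encodes the C1 inhibitor, which holds C1r and C1s in check. It had 57.0, 115.1 and 94.6 CPM in obese + senolytic libraries, 44.6, 68.0, 97.1 and 59.5 CPM in obese libraries and 88.6, 65.8, 73.6 and 80.5 CPM on the control diet. Its groups overlapped, and the lowest library was obese replicate 1. The log2 fold change was 0.40 for obese + senolytic against obese (SE 0.256, adjusted p = 0.599), -0.20 for obese against control diet (SE 0.239, adjusted p = 0.558; 0.26 under library totals alone) and 0.21 for obese + senolytic against control diet (adjusted p = 0.614). Set against the proteases it inhibits, Serping1 per kb was 2.27 to 3.10 times the sum of C1ra and C1s1 in obese + senolytic libraries, 1.96 to 2.71 times in obese libraries and 2.74 to 2.99 times on the control diet. All 4 obese libraries were thus below all 4 control-diet libraries in this ratio, and obese + senolytic libraries overlapped with both. The gap was narrow, between 2.71 in the highest obese and 2.74 in the lowest control-diet library. Among single genes tested, 28.5% did not overlap between these groups. The ratio was not tested, and none of its genes was called.

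The 12 fibroblast markers, none at 0 in any library, summed to 1268 to 2498 CPM in obese + senolytic libraries, 1056 to 2602 CPM in obese libraries and 1315 to 1556 CPM on the control diet. The mean log2 CPM of C1ra, C1s1 and Serping1 lay below that of these markers in each library, with differences of -0.851 to -0.691 in obese + senolytic libraries, -1.12 to -0.853 in obese libraries and -0.748 to -0.624 on the control diet. Obese libraries did not overlap with the control diet, and their highest value (-0.853) was next to the lowest obese + senolytic value (-0.851). Of single genes tested, 28.5% did not overlap between obese and control-diet libraries. The 12 markers themselves shifted in obese against control-diet hearts, with 9 positive log2 fold changes, 2 calls higher, 1 call lower and a median of 0.47. With the fibroblast score as a covariate, Serping1 and C1ra were lower in obese than control-diet hearts, with log2 fold changes of -0.49 (adjusted p = 0.00237) and -0.28 (adjusted p = 0.0496). Without a covariate they were -0.20 (adjusted p = 0.558) and -0.04 (adjusted p = 0.915), and neither was called. Serping1 also passed as lower in that comparison with the mesothelial score, at -0.44 (adjusted p = 0.0156), with the atrial score, at -0.56 (adjusted p = 0.0332), and with the adipocyte score, at -0.85 (adjusted p = 0.00485). With the adipocyte score C1ra was at -0.58 (adjusted p = 0.0338). The fibroblast, mesothelial and adipocyte scores were added after the data were seen.

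C4b was the member with the widest spread in both groups on the obesogenic diet. It encodes complement C4, whose cleaved form anchors the C3-cutting enzyme of the classical pathway, and lies on the minus strand at chr17:34728380-34743882. It had 19.7, 67.1 and 67.0 CPM in obese + senolytic replicates 1 to 3, 15.2, 63.0, 64.6 and 20.0 CPM in obese replicates 1 to 4, and 19.3, 12.8, 15.1 and 12.9 CPM in control-diet replicates 1 to 4. On the obesogenic diet 4 libraries were high and 3 were near the control-diet level, with no library between, in both the senolytic and the vehicle group. The highest library was 3.40 times the lowest in obese + senolytic hearts, 4.26 times in obese hearts and 1.51 times on the control diet. The log2 fold change was 0.33 for obese + senolytic against obese (SE 0.579, 95% interval -0.97 to 1.64, adjusted p = 0.866). It was 1.44 for obese against control diet (SE 0.551, interval 0.19 to 2.68), with an adjusted p of 0.0777. For obese + senolytic against control diet it was 1.77 (SE 0.584, interval 0.45 to 3.09), with an adjusted p of 0.0703. In this last comparison the 3 obese + senolytic libraries lay above all 4 control-diet libraries, the only member with no overlap, beside 13.7% of all genes tested that were higher with no overlap (27.9% in either direction). In obese against control-diet hearts 0 of 9 members were free of overlap, beside 28.5% of all genes, and in obese + senolytic against obese hearts 0 of 9, beside 10.1%.

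C4b stood near the threshold, and other settings put it on either side. It passed as higher in obese than control-diet hearts in 6 of 28 alternatives, whose adjusted p ranged between 0.00776 and 0.676. It passed in obese + senolytic against control-diet hearts in 7 of 28, with a range of 0.0167 to 0.78. Leaving out obese replicate 1 gave 1.71 (adjusted p = 0.0369) and 1.77 (adjusted p = 0.0448) in these comparisons. Leaving out obese + senolytic replicate 1 gave 2.15 (adjusted p = 0.0409) in the second. Both are libraries with low C4b. Over all 11 fits that left out 1 library, the first comparison ran from 1.12 to 1.71 (adjusted p 0.0369 to 0.181). The second ran from 1.53 to 2.15 (adjusted p 0.0409 to 0.209). Without the 3 libraries with high atrial markers the values were 1.12 and 0.40, the latter with obese + senolytic replicate 1 alone in its group. Obese replicate 2 had C4b at 63.0 CPM with atrial markers at 148.0 CPM, and the other high C4b libraries were the 3 with high atrial markers. Its fibroblast markers, at 1663 CPM, were above all control-diet libraries. The 4 high C4b libraries were the 4 with adipocyte marker means above 0, at 1.005 to 1.31 log2 CPM. The other 7 libraries had means of -1.44 or less. This score was added after the data were seen and splits the libraries as C4b does. A smaller C4b difference with it as a covariate follows from that split. The parts of atrial, fibroblast and adipocyte content in the C4b values were not tested. With the adipocyte score as a covariate the log2 fold change of C4b was -0.25 for obese against control diet (adjusted p = 0.373), -0.26 for obese + senolytic against control diet (adjusted p = 0.521) and -0.01 for obese + senolytic against obese (adjusted p = 0.989). With the fibroblast score as a covariate the log2 fold change of C4b was 0.67 for obese against control diet (adjusted p = 0.00776) and 0.74 for obese + senolytic against control diet (adjusted p = 0.0167), less than 1.44 and 1.77 without it. Its near-identical neighbour C4a could share reads with it. C4a followed the same libraries, with 0.946, 2.12 and 2.27 CPM in obese + senolytic libraries, 0.839, 2.69, 2.03 and 0.772 CPM in obese libraries and 0.708, 0.660, 0.651 and 0.406 CPM on the control diet. A search for the genes most like C4b, added after its values were seen, gave Col14a1 (0.247), which encodes collagen XIV, Igfbp5 (0.273), an insulin-like growth factor binding protein, C4a (0.284), Unc5c (0.294), a netrin receptor, and Itgb8 (0.301), an integrin chain, beside an SD of 1.04 for C4b. Igfbp5 had 132.0, 445.1 and 451.5 CPM in obese + senolytic libraries, 99.6, 269.9, 459.4 and 170.1 CPM in obese libraries and 97.5, 92.9, 115.5 and 69.2 CPM on the control diet.

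**Figure D3:**
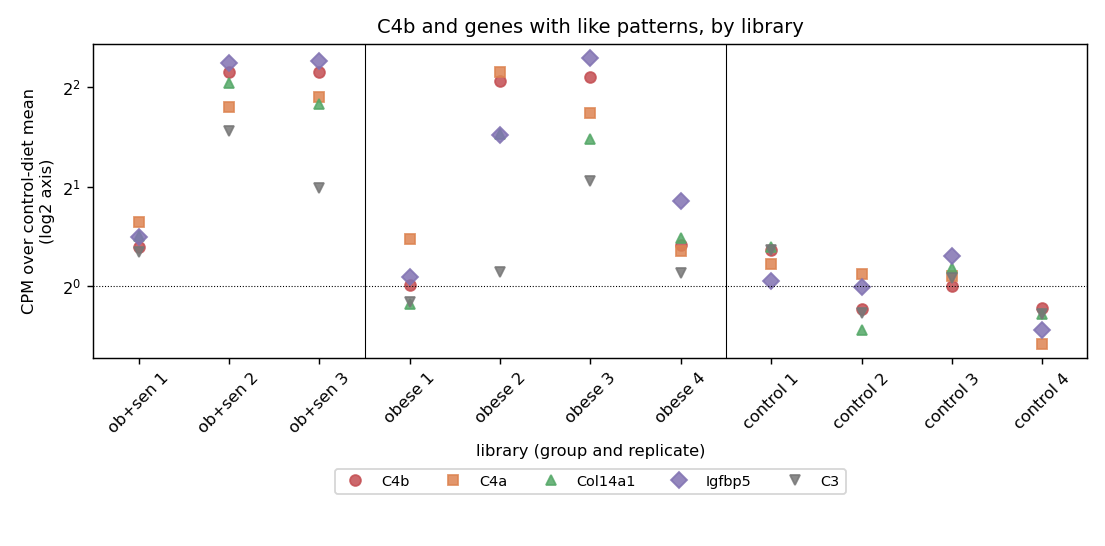
CPM of C4b, of 3 genes with a like pattern (C4a, Col14a1, Igfbp5) and of C3, each over its own control-diet mean (log2 axis), in every library. C4a could share reads with C4b. C4b, C4a, Col14a1 and Igfbp5 are high in obese + senolytic 2 and 3 and in obese 2 and 3, whereas C3 in obese 2 (154.3 CPM) is near its control-diet mean (139.9 CPM).

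C3 was the member that passed a test. It encodes the protein on which the complement pathways meet and lies on the minus strand at chr17:57203970-57228136. It had 177.2, 413.1 and 277 CPM in obese + senolytic libraries, 125.6, 154.3, 291.9 and 153.0 CPM in obese libraries and 180.1, 116.2, 147.9 and 115.5 CPM on the control diet. C3 was 2.07-fold higher in obese + senolytic than control-diet hearts (95% interval 1.28 to 3.34, log2 fold change 1.05, SE 0.317, adjusted p = 0.0449). Obese + senolytic replicate 1 was nevertheless below control replicate 1, so the groups overlapped. For obese + senolytic against obese the log2 fold change was 0.67 (interval -0.02 to 1.37, adjusted p = 0.5), and for obese against control diet it was 0.37 (interval -0.27 to 1.02, adjusted p = 0.361). A call against the control diet in the senolytic group and none in the obese group does not show that the groups differ.

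The C3 call stood close to the threshold. It was lost in 8 of 11 fits that left out 1 library, namely each of control replicates 1 to 4, obese replicates 2 and 4 and obese + senolytic replicates 2 and 3. Over the 11 fits log2 fold changes were 0.70 to 1.30 and adjusted p was 0.0151 to 0.165. Without obese replicate 2 or 4, which are outside this comparison, the values were 1.05 and 1.03 (adjusted p 0.0551 and 0.0612). Without control replicate 1 the value was 1.19 (adjusted p = 0.0586). The lowest value, 0.70, came without obese + senolytic replicate 2 (adjusted p = 0.165). Without the 3 libraries with high atrial markers the log2 fold change was 0.35, with obese + senolytic replicate 1 alone in its group. With the atrial, mesothelial, fibroblast or adipocyte score as a covariate it was 0.45, 0.24, 0.54 or 0.17 (adjusted p 0.397, 0.47, 0.0509 and 0.782). The mesothelial list, 10 genes of the layer that covers the heart, summed to 12.6, 117.6 and 71.6 CPM in obese + senolytic libraries, 12.3 to 37.9 CPM in obese libraries and 6.60 to 11.8 CPM on the control diet, and 5 of its 10 genes passed as higher in obese + senolytic than control-diet hearts, none as lower. Hepatocyte markers, 8 genes, summed to 1.53 to 16.4 CPM in obese + senolytic libraries, 0.154 to 1.53 CPM in obese libraries and 0.722 to 1.06 CPM on the control diet, far below C3 in each library. The genes most like C3 across libraries were Fbln1 (0.209), the matrix protein fibulin 1, Lrp1 (0.216), an endocytic receptor, Gsn (0.219), gelsolin, which is also one of the fibroblast markers, Mapk10 (0.226) and Ms4a6d (0.232), beside an SD of 0.598 for C3. The ratio of C3 to C4b, per kb, was 4.58 to 9.94 in obese + senolytic libraries, 2.71 to 9.17 in obese libraries and 9.92 to 10.9 on the control diet, lowest in obese replicate 2.

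The RefSeq promoter of C3, the one member called, is shown for the same 250 bases before the start, on the minus strand, chr17:57228137-57228386, with matches to the NF-kB-type letters and TTGCNNAA on either strand in capitals.
C3: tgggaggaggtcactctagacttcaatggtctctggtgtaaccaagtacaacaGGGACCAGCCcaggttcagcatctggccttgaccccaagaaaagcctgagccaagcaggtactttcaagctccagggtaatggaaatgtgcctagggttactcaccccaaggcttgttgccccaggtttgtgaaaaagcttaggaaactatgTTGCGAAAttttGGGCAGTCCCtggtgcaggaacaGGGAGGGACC
The NF-kB-type letters matched at 197, 33 and 10 bases before the start and TTGCNNAA at 45. A match describes letters in this window and is not evidence of binding.

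Cfb (chr17:34856374-34862518, minus strand) encodes factor B, the protease of the alternative pathway's C3-cutting enzyme. It had 2.53, 5.47 and 5.31 CPM in obese + senolytic libraries, 2.98, 4.90, 4.99 and 2.61 CPM in obese libraries and 3.59, 2.52, 2.12 and 1.87 CPM on the control diet. The same 4 libraries as for C4b were high, those with adipocyte marker means of 1.005 to 1.31 log2 CPM, and the groups overlapped through control replicate 1. The log2 fold change was 0.20 for obese + senolytic against obese (adjusted p = 0.851), 0.61 for obese against control diet (interval -0.03 to 1.26, adjusted p = 0.133) and 0.81 for obese + senolytic against control diet (interval 0.13 to 1.5, adjusted p = 0.0967). Without the 3 libraries with high atrial markers, the values were -0.46 for obese + senolytic against obese, 0.47 for obese against control diet and 0.01 for obese + senolytic against control diet. With the adipocyte score as a covariate they were -0.02, -0.09 and -0.11 in the same order. The part of adipocyte content in the Cfb values was not tested. Leaving out obese + senolytic replicate 1, the lowest of its group, gave 1.09 in the last comparison (adjusted p = 0.0373). Over all 11 fits that left out 1 library, that comparison ran from 0.63 to 1.09 (adjusted p 0.0373 to 0.298). A gene model that overlaps Cfb on the same strand, Gm20547, had at most 0.440 CPM.

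**Figure D4:**
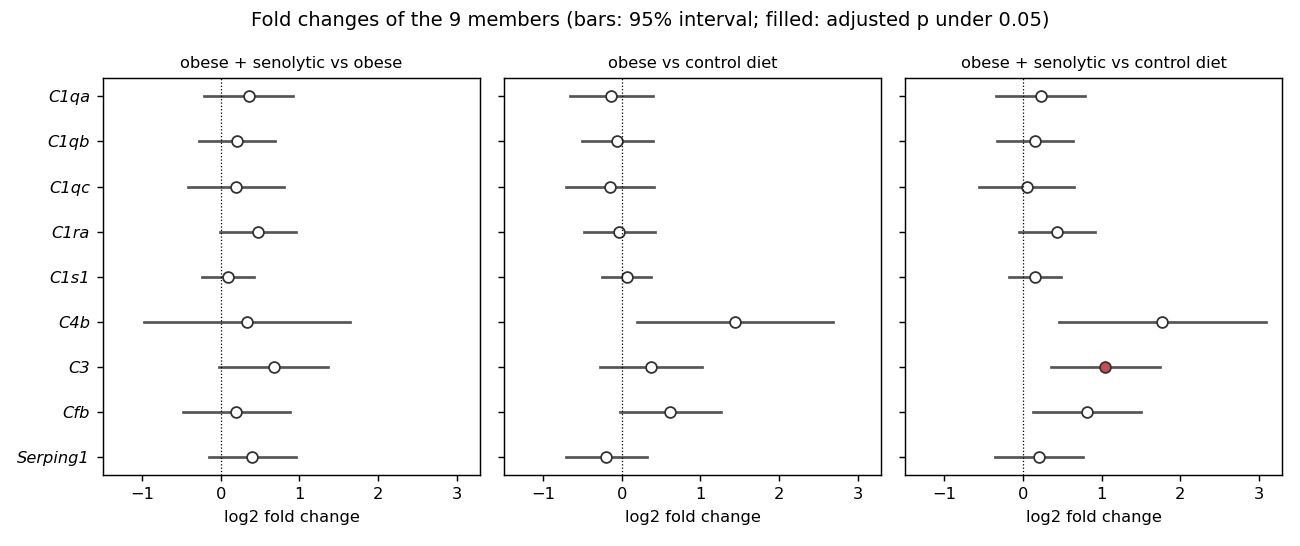
Log2 fold changes of the 9 members (points) with 95% intervals (bars) for obese + senolytic against obese, obese against control diet and obese + senolytic against control diet. The filled point is C3 in the last panel, at 1.05, and C4b has the widest intervals.

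Among 50 other complement genes, 41 passed the filter on low counts, and the other 9 had at most 47 counts over all libraries. In obese + senolytic against obese hearts 0 of 41 passed. In obese against control-diet hearts 2 of 41 were higher and 3 lower, beside 14.4% and 15.7% of all genes tested. In obese + senolytic against control-diet hearts 4 of 41 were higher and 4 lower, beside 7.43% and 8.39%. By role, the recognition and initiation genes (10 tested) had 1 higher and 1 lower in obese against control-diet hearts, and the alternative pathway genes (2 tested) had 1 higher. The terminal pathway (4 tested) and the receptors (10 tested) had none, and the regulators (15 tested) had 2 lower. Median log2 fold changes of these lists were 0.45, 2.06, 0.38, 0.14 and -0.12 in that order, beside 0.11 for all genes. In obese + senolytic against control-diet hearts the same lists had 2 higher and 1 lower, 1 higher, none, 1 lower, and 1 higher and 2 lower.

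Cfp and Colec11 separated the diets without overlap, as did 28.5% of all genes in obese and 27.9% in obese + senolytic against control-diet hearts. Cfp encodes properdin, which stabilises the alternative pathway's C3-cutting enzyme. It had 7.75, 7.40 and 11.4 CPM in obese + senolytic libraries, 8.82, 9.26, 9.40 and 7.55 CPM in obese libraries and 3.96, 3.74, 3.84 and 3.46 CPM on the control diet. Its log2 fold change was 1.22 for obese against control diet (SE 0.152, adjusted p = 0.000268) and 1.24 for obese + senolytic against control diet (SE 0.161, adjusted p = 0.000834). Colec11 encodes a collectin that starts the lectin pathway. It had 5.29, 5.27 and 5.17 CPM in obese + senolytic libraries, 5.15, 4.94, 4.81 and 5.27 CPM in obese libraries and 10.1, 9.09, 8.93 and 9.99 CPM on the control diet. All 7 libraries on the obesogenic diet were thus below all 4 on the control diet, with log2 fold changes of -0.92 for obese (adjusted p = 0.000227) and -0.86 for obese + senolytic (adjusted p = 0.00118). Neither gene lost a call when any 1 of the 11 libraries was left out. Without the 3 libraries with high atrial markers, Colec11 in obese + senolytic against control-diet hearts was at -0.84. The intronic share also separated obese from control-diet libraries. With it as a covariate 121 genes were called in obese against control-diet hearts, beside 7166 without it. The obese calls of both Cfp and Colec11 ended in that fit, at 0.92 for Cfp (adjusted p = 0.201) and -0.76 for Colec11 (adjusted p = 0.0847). With the adipocyte score as a covariate both kept their calls in obese hearts, Cfp at 1.09 (adjusted p = 0.00211) and Colec11 at -0.87 (adjusted p = 0.00186).

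Among regulators and binding partners, Cd59a, C1qbp and Cd93 fell and Thbd rose. Cd59a, which blocks the membrane attack complex, averaged 23.2 ± 2.43 CPM in obese + senolytic hearts (SD, n = 3), 20.6 ± 3.27 in obese hearts (SD, n = 4) and 33.2 ± 4.50 on the control diet (SD, n = 4). It fell in obese against control-diet hearts by 0.69 on the log2 scale (adjusted p = 0.00287) and in obese + senolytic against control-diet hearts by 0.51 (adjusted p = 0.0336). C1qbp, a mitochondrial protein that also binds C1q, averaged 37.4 ± 3.78, 32.6 ± 6.76 and 62.4 ± 9.41 CPM in obese + senolytic, obese and control-diet hearts (SD, n = 3, 4 and 4). It fell in obese against control-diet hearts by 0.93 (adjusted p = 0.000944) and in obese + senolytic against control-diet hearts by 0.74 (adjusted p = 0.0117). Cd93, an endothelial surface protein once described as a C1q receptor, fell in obese + senolytic against control-diet hearts by 0.55 (adjusted p = 0.0405), at 78.2 ± 9.39 against 114.7 ± 4.99 CPM (SD, n = 3 and 4). The 7 endothelial markers summed to 768 to 856.4 CPM in obese + senolytic libraries, 780.4 to 880.1 CPM in obese libraries and 979.3 to 1115 CPM on the control diet. None was at 0, 2 of 7 passed as lower in obese + senolytic against control-diet hearts and 3 of 7 in obese against control-diet hearts, and their part in the Cd93 and Thbd values was not tested. Thbd, thrombomodulin, an endothelial regulator of clotting and complement, was higher in the same comparison by 0.42 (adjusted p = 0.0212), at 59.9 ± 7.19 against 44.8 ± 2.17 CPM (SD, n = 3 and 4). In obese + senolytic against control-diet hearts these calls were lost when single libraries were left out. Cd93 lost its call without control 1, 3 or 4 or any obese + senolytic library (adjusted p up to 0.129), and Cd59a without control 1, 3 or 4 or obese + senolytic 1 or 3 (up to 0.113). Thbd lost it without control 3 or 4 or obese + senolytic 2 or 3 (up to 0.0844), and C1qbp without obese + senolytic 3 (0.0687). Without the 3 libraries with high atrial markers, log2 fold changes were -0.75 for Cd93, -0.67 for Cd59a, -0.59 for C1qbp and 0.29 for Thbd. Those of Cd93 and Cd59a were larger in size than with all libraries, and those of C1qbp and Thbd smaller. In obese against control-diet hearts Cd59a and C1qbp kept theirs in all 11 fits that left out 1 library. With the intronic share as a covariate, a fit that called 121 genes, they lost them, at -0.32 (adjusted p = 0.618) and -0.39 (adjusted p = 0.505). Under library totals alone, with medians of all genes raised by 0.42, the calls of Cd93 (-0.12, adjusted p = 0.643), Cd59a (-0.26 in obese and -0.08 in obese + senolytic hearts) and C1qbp in obese + senolytic hearts (-0.31, adjusted p = 0.0601) were lost.

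C2, the protease that joins C4b, rose in obese + senolytic against control-diet hearts by 1.85 on the log2 scale (SE 0.481, adjusted p = 0.0243). It had 0.784, 4.27 and 3.35 CPM in obese + senolytic libraries, 0.839, 1.31, 2.49 and 0.947 CPM in obese libraries and 0.807, 0.717, 0.853 and 0.733 CPM on the control diet. Without the 3 libraries with high atrial markers its log2 fold change was 0.02. C4a, a near-identical neighbour of C4b, could share reads with it. It rose by 1.38 in obese (adjusted p = 0.025) and by 1.55 in obese + senolytic against control-diet hearts (adjusted p = 0.0329). Without those 3 libraries the values were 1.23 and 0.65. Leaving out control 1, 3 or 4 or obese + senolytic 2 or 3 ended the call of both genes against the control diet in the senolytic group (adjusted p up to 0.0958 for C2 and 0.135 for C4a). With the adipocyte score as a covariate the values in that comparison were 0.09 for C2 (adjusted p = 0.929) and 0.10 for C4a (adjusted p = 0.902). C4a was then at 0.17 in obese against control-diet hearts (adjusted p = 0.744). Other scores also ended both calls in the senolytic group against the control diet. With the atrial, mesothelial and fibroblast scores C2 was at 0.51, 0.22 and 0.81 (adjusted p 0.473, 0.652 and 0.0723). C4a was at 0.89, 0.61 and 0.86 in the same order (adjusted p 0.313, 0.394 and 0.0956). The parts of atrial, mesothelial, fibroblast and adipocyte content in the values of both genes were not tested. In obese against control-diet hearts C4a lost its call without control 3 or 4 or obese 2 or 3 (up to 0.0886).

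**Figure D5:**
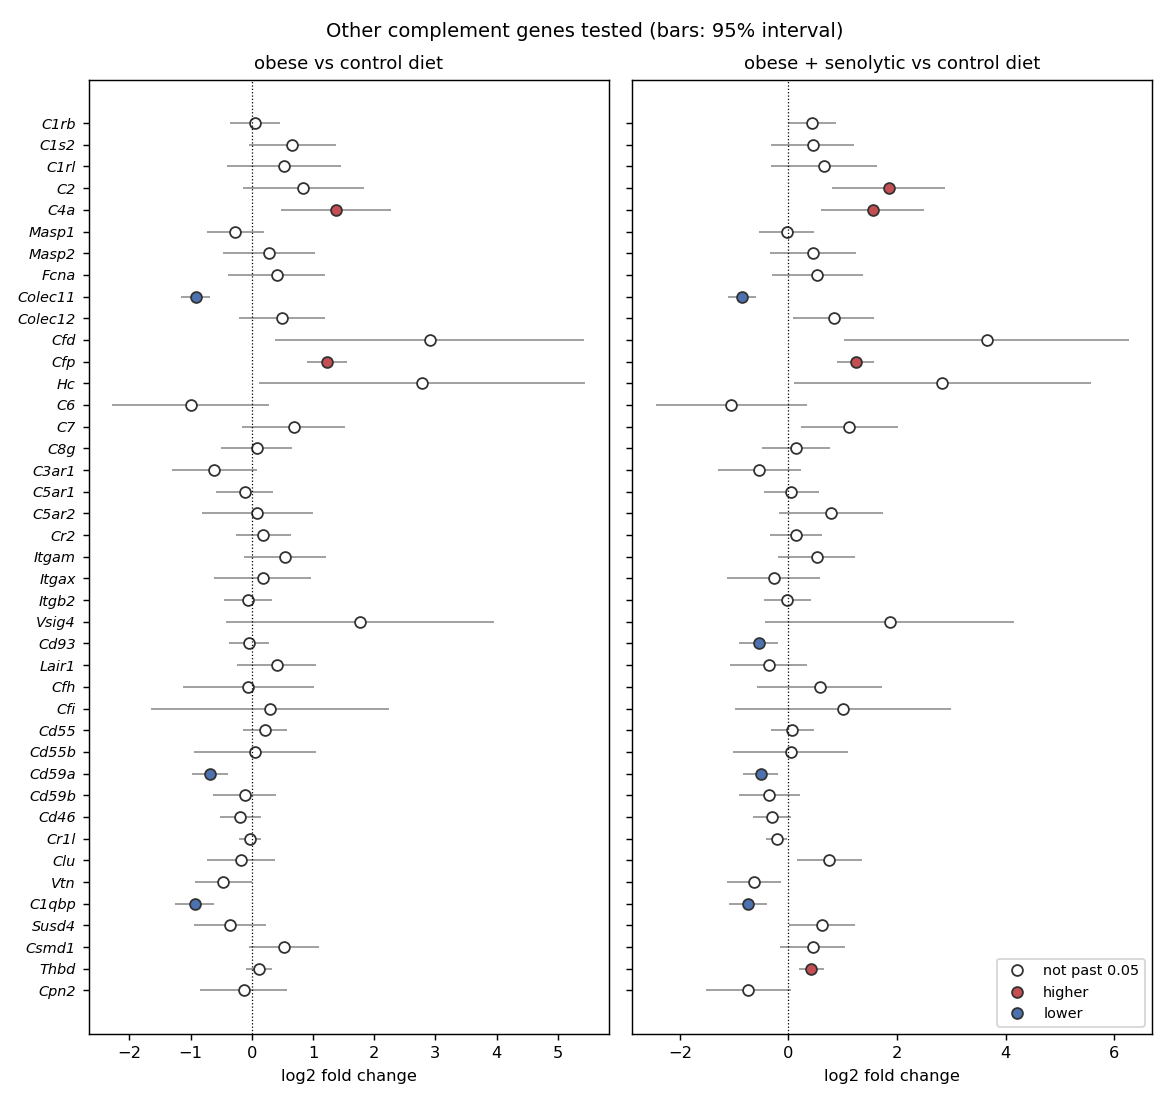
Log2 fold changes (points) with 95% intervals (bars) of the 41 other complement genes tested, for obese against control diet and obese + senolytic against control diet. Red points passed as higher and blue points as lower, and Cfp (1.22 and 1.24) and Colec11 (-0.92 and -0.86) have short intervals in both panels.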

How the data were processed

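Hearts of 11 mouse libraries were sequenced. The authors deposited whole-number counts per Ensembl gene, analysed here as read counts. Per the submitters' processing notes, cutadapt, HISAT2 and StringTie were used on GRCm38, with no versions given. No source used here says whether the values are counted reads or coverage estimates, or whether strand was used. Symbols, positions and exon lengths came from GENCODE M21 (GRCm38), which held 55227 of 55487 identifiers. For 113 symbols on more than 1 identifier, the identifier with the largest total was used.

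Genes were filtered with filterByExpr (minimum count 10, minimum total 15), which left 23779. A single edgeR fit (version 4.0.16, R 4.3.3) held the 3 groups and their 11 libraries (TMM, robust quasi-likelihood, common biological coefficient of variation 0.259), tested on simulated data first. CPM per kb divides CPM by the union of exon lengths. Log2 CPM used a prior count of 1, and a marker score is the mean log2 CPM of its list. Likeness was computed over genes with a mean of at least 1 CPM and no predicted-gene name. DESeq2 1.42.0, limma voom (3.58.1), other scalings and filters, covariates and leaving out libraries were alternatives.

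Members, lists and tests were chosen with earlier results of these data known. Always named were the 9 members, the other complement genes that passed in any comparison (up to the 6 smallest p per list) and the 5 genes most like C1qa, C1s1 and C3. RefSeq promoters (GRCm38.p6) matched 5 of 9 members. No label ties each library to its own animal, so p-values measure spread between libraries, which may be technical. No pair of libraries in a group agreed within counting noise, so none was merged as a repeat deposit.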

Additional observations from a re-analysis of the deposited data

Results flagged for a closer look

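C1qa in obese replicate 3 was 18.07 CPM, far from the other 3 obese libraries, which had between 9.67 and 10.6 CPM. The gap to the nearest library was 0.889 of the whole range, above Dixon's 95% critical value of 0.829 for 4 samples. Each member was screened in the obese and the control-diet group, 18 groups in all, and chance flags about 1 in 20 groups. The same library had the highest summed macrophage markers of the 11, 385.1 CPM, and summed atrial markers of 2240 CPM. Their part in the value was not tested.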

How the results depend on the processing

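The median of all genes shifted by 0.422 (obese against control diet) and 0.42 (obese + senolytic against control diet) on the log2 scale under library totals alone, so values under that scaling carry this shift. Shifts were 0.103 under upper-quartile scaling and 0.104 with protein-coding genes only, for obese against control diet. Members near 0 changed sign readily. For a change of sign or of a count, the cause was not tested.

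Obese + senolytic against obese, 0 genes called: 2 were called under upper-quartile scaling, 2 with protein-coding genes only, 2 without a filter, 2 with the fibroblast score, 3 with the adipocyte score, 1 by limma voom, 124 by DESeq2, 5 without the 3 high-atrial libraries, and 0 to 24 on leaving out 1 library (24 without obese replicate 3). Log2 fold changes that turned negative were C1qc -0.067 with the intronic share as a covariate; C1qc -0.044, C1s1 -0.00634 and C4b -0.125 with the atrial score; C1qa -0.039, C1qb -0.0815, C1qc -0.332, C1s1 -0.11, C4b -0.56, Cfb -0.291 and Serping1 -0.0534 with the mesothelial score; C1qc -0.015 with the fibroblast score; C1qc -0.0219, C4b -0.0101 and Cfb -0.0218 with the adipocyte score; and C1qc -0.378, C1s1 -0.0393, C4b -0.715 and Cfb -0.456 without the 3 high-atrial libraries. On leaving out 1 library C1qc ran between -0.0652 and 0.465.

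Obese + senolytic against control diet, 1 member and 3760 genes (15.8%) called: 5 members were called higher under library totals alone (7300 genes). With protein-coding genes only, with only the 2 groups compared and by DESeq2, 2 members were called higher in each. No member was called higher without a filter (C3 adjusted p = 0.0901), by limma voom (0.0579), with the atrial score or mesothelial score (1 member, C1qc, lower), with the adipocyte score (1670 genes), with the intronic share (510 genes, C3 adjusted p = 0.246) or without the 3 high-atrial libraries (378 genes). With the fibroblast score 1 member was called, C4b in place of C3. Leaving out 1 library gave 0 to 3 members and 1011 to 4652 genes, with 1857, 2473, 1816 and 1011 genes without control replicates 1, 3 and 4 and obese + senolytic replicate 3. Values that turned negative were C1qa -0.215, C1qb -0.197, C1qc -0.523, C1ra -0.00179, C1s1 -0.0923 and Serping1 -0.381 with the atrial score; C1qa -0.361, C1qb -0.294, C1qc -0.707, C1ra -0.14, C1s1 -0.15 and Serping1 -0.492 with the mesothelial score; C1qa -0.143, C1qb -0.151, C1qc -0.429, C1s1 -0.0547 and Serping1 -0.25 with the fibroblast score; C1qa -0.388, C1qb -0.404, C1qc -0.763, C1ra -0.261, C1s1 -0.247, C4b -0.255, Cfb -0.107 and Serping1 -0.645 with the adipocyte score; and C1qa -0.266, C1qb -0.193, C1qc -0.707, C1ra -0.0763, C1s1 -0.11 and Serping1 -0.425 without the 3 high-atrial libraries. On leaving out 1 library C1qc ran between -0.219 and 0.31 and Serping1 between -0.0277 and 0.44.

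Obese against control diet, 0 members and 7166 genes (30.1%) called: 3 members were called higher under library totals alone. C4b alone was called higher with protein-coding genes only, by DESeq2, with the mesothelial score and with the fibroblast score. Called lower were 1 with the atrial score, 1 with the mesothelial score, 3 with the fibroblast score and 3 with the adipocyte score. In the main fit 14.4% of all genes were called higher and 15.7% lower. Shares by direction in the other fits are not given, so these counts do not set the members apart from other genes. With the adipocyte score 5586 of 23779 genes were called in either direction. With the intronic share 121 genes were called. Leaving out 1 library gave 0 to 1 members, C4b without obese replicate 1. Values of opposite sign were C1qb 0.0529 and C1ra 0.0689 under upper-quartile scaling; C1qa 0.323, C1qb 0.405, C1qc 0.311, C1ra 0.41 and Serping1 0.258 under library totals alone; C1ra 0.0205 with at least 1 CPM in 3 libraries; C1qb 0.055 and C1ra 0.0724 with protein-coding genes only; C1qa 0.247, C1qb 0.303, C1qc 0.489, C1ra 0.0188 and Serping1 0.0543 with the intronic share; C1s1 -0.0859 and C3 -0.0164 with the atrial score; C1s1 -0.251, C4b -0.245, C3 -0.292 and Cfb -0.0853 with the adipocyte score; and C1s1 -0.0399, -0.0743 and -0.0705 with the mesothelial score, with the fibroblast score and without the 3 high-atrial libraries. On leaving out 1 library C1qa ran between -0.386 and 0.0152, C1qb between -0.275 and 0.0655, C1ra between -0.231 and 0.0862 and C1s1 between -0.0691 and 0.118.

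With the replicate number as a block, 0 members were called in obese + senolytic against control diet: C3 was 0.922 (adjusted p = 0.12) and C1qc -0.00857. The block also ended the calls there of Cd93 (-0.559, adjusted p = 0.0559), Cd59a (-0.45, 0.0632) and Thbd (0.411, 0.0525). The labels give the numbers no meaning shared between groups, and whether they mark pairs or batches is not known. Correlations of deviations were 0.00617, -0.0236, 0.122 and 0.0505 for obese and control-diet libraries 1 to 4. They were 0.399, 0.0694 and 0.336 for obese + senolytic and obese libraries 1 to 3, and -0.0139, -0.232 and 0.0641 for obese + senolytic and control-diet libraries. Of these, 2 of 3 obese + senolytic libraries correlated best with their own number among obese libraries and 1 of 3 among control-diet libraries, and 2 of 4 obese libraries did among control-diet libraries.

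The mesothelial, fibroblast and adipocyte scores as covariates and the fit without the 3 high-atrial libraries were added after the data were seen. The scores come from the same libraries as the members. Obese against control diet had 121 genes called with the intronic share as a covariate, beside 7166 without it. With the intronic share, all 5 other complement genes called in obese against control diet lost their call: Cfp (0.921, adjusted p = 0.201), Colec11 (-0.758, 0.0847), Cd59a (-0.317, 0.618), C1qbp (-0.389, 0.505) and C4a (1.03, 0.664). Whether depth or the number of libraries limited the members was not tested; the rarest, Cfb, had 2755 counts in all.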
